A study of Mus musculus with 15 samples.

Results

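The cell cycle and DNA replication genes described here are 47 named genes of the mitotic cell cycle, of which 46 were measured, among the 19938 genes represented on the arrays. They were chosen by name and divided by role into 16 genes of G1-S control, 13 genes of DNA replication and 17 genes of mitosis; Ccnb1, which encodes cyclin B1, had no transcript cluster assigned to it alone and is not analysed here. A transcript cluster is the group of probes that the array reads as 1 transcript, and the cluster with the highest mean signal stands for each gene. The cells were TER119-positive cells of mouse fetal liver at E13.5 (strain FVB/NJ), enriched with magnetic beads against TER119, a surface antigen of maturing erythroid cells. Each of the 15 samples was hybridised to 1 Affymetrix array. The genotypes were Klf3-/- Klf8gt/gt (doubly mutant, 4 arrays), Klf3-/- (Klf3-null, 3 arrays), Klf8gt/gt (Klf8-trap, carrying a gene-trap allele of Klf8, 4 arrays) and wild type (4 arrays). KLF3 and KLF8 are related zinc-finger repressors that bind CACCC-type sequences. The design lets each mutation be read alone, in combination and as an interaction. Litters were matched where possible, per the series design, but no litter is given per sample, nor whether a sample was 1 embryo or a pool, so the p-values measure the spread between these samples.

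The arrays' medians lay between 6.28 and 6.41 on the log2 scale, and correlations between arrays over all clusters between 0.974 and 0.992. All 46 genes were above the array medians on all 15 arrays. The signal of Klf3 was not lower where the label says Klf3-/- (11.06 to 11.73 in doubly mutant and 11.16 to 11.40 in Klf3-null arrays, against 10.21 to 10.30 in Klf8-trap and 10.12 to 10.51 in wild-type arrays), so it does not check that label, and Klf8 was below the array medians in Klf8-trap and wild-type arrays, so it does not check the trap alone. Against wild type, the log2 signal of Klf8 was higher by 3.35 in Klf3-null and by 1.93 in doubly mutant arrays (limma, adjusted p under 0.05 for both). Its difference between doubly mutant and Klf3-null arrays was -1.42 (limma, adjusted p = 0.0265). Klf3-null arrays therefore do not show loss of KLF3 with Klf8 RNA unchanged. By Xist and Y-linked genes, 2 of 4 doubly mutant, 2 of 3 Klf3-null, 2 of 4 Klf8-trap and 0 of 4 wild-type arrays were female. All 13 measured erythroid markers were above the array medians; lymphoid and mast cell markers were below them for 7 of 7 measured genes. Replicate 1 of the doubly mutant group and replicate 1 of the Klf8-trap group were picked out in earlier work on these data as arrays that stand apart. Over the tested clusters each had the lowest mean correlation with the other arrays of its own group (0.9857 and 0.9884), but doubly mutant replicates 3 and 4 (0.9877 and 0.9869) came close to the first and were below the second.

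Cells enter S phase when D-type and E-type cyclins with their kinases inactivate the retinoblastoma protein and free the E2F transcription factors. Replication origins are licensed in G1 by the origin recognition complex, CDC6 and CDT1, which load the MCM helicase. The mitotic genes are switched on later, through the MuvB complex with B-MYB and FOXM1. Erythroblasts of the fetal liver divide rapidly and leave the cycle at the end of their maturation, a step in which cyclin-dependent kinase inhibitors, the retinoblastoma protein and E2F4 take part in the mouse.

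The promoters of the 3 groups differ in short sequence words that are known to carry this timing. They are shown because the groups are defined by role, and the words were not used to choose them. Windows of 300 bases, 250 before to 50 after the start site (RefSeq, GRCm38.p6), were found for 37 of the 47 listed genes, with 41 windows in all (Ccnb1 included). Both strands were searched for the cell cycle homology region (CHR, the words TTTGAA or TTCGAA), for CCAAT, for E2F words (TTTCCCGC, TTTCGCGC, TTTGCCGC or TTTGGCGC) and for CACCC box words (CCACACCC or CCGCACCC); none of these words contains another. The window of Plk1 (chr7:122159185-122159484, plus strand) and that of Top2a (chr11:99024140-99024439, minus strand) are shown from the mitosis genes, with CHR and CCAAT words in capitals. Those of Mcm3 (chr1:20820263-20820562, minus strand) and of Orc1 (chr4:108579204-108579503, plus strand), a replication gene outside the 47 that passed the test in these data, show E2F words in capitals.
Plk1: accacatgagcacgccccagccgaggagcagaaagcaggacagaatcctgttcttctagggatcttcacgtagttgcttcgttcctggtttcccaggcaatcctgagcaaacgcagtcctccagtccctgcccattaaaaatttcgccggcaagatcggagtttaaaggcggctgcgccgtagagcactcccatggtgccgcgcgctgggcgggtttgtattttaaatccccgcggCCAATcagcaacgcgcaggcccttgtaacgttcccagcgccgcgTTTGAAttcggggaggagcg
Top2a: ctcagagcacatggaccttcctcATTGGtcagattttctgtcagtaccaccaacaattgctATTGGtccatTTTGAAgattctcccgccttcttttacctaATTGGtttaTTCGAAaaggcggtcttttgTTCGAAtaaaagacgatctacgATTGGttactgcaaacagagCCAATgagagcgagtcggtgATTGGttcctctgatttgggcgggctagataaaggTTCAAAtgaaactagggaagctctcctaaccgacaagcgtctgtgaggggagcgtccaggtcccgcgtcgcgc
Mcm3: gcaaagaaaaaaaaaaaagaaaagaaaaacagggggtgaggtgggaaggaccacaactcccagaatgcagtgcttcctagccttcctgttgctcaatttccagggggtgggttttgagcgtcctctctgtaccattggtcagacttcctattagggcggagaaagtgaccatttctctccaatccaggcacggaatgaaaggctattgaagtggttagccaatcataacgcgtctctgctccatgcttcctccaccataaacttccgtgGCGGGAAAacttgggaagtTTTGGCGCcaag
Orc1: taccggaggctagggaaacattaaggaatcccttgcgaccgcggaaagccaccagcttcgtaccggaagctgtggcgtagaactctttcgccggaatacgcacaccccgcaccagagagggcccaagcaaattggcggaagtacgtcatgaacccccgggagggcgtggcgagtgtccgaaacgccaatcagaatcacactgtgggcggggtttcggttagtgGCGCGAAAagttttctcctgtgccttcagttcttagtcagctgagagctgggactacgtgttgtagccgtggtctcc

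A CHR word was found in 12 of 15 mitosis windows (80.0%), 2 of 12 DNA replication windows (16.7%) and 2 of 14 G1-S control windows (14.3%), against 19.2% of all 32851 promoter windows. The 3 mitosis windows without one belonged to Birc5, Ccnb1 and Cenpe. Top2a held 4 CHR words and 6 CCAAT words, the most of both among the mitosis windows, and Plk1 1 of each. E2F words were found in 6 of 12 DNA replication windows (50%), those of Cdc6, Cdt1, Mcm3, Mcm5, Mcm6 and 1 of the Mcm7 windows, against 2.26% of all windows; 1 of 15 mitosis windows (6.67%, that of Cdk1) and 2 of 14 G1-S control windows (14.3%) held one. CCAAT was present in 93.3% of mitosis, 75.0% of replication and 57.1% of G1-S control windows, against 37.4% of all. CACCC box words were in 0 of 15 mitosis windows, 2 of 12 replication windows (16.7%; Rrm1 and Tyms) and 2 of 14 G1-S control windows (14.3%; Ccne1 and Cdk4), against 5.31% of all. A match is a run of letters in the window and not a measured binding site. The CACCC box words searched are only some of the CACCC-type sequences, so a window without them may hold others.

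**Figure D1:**
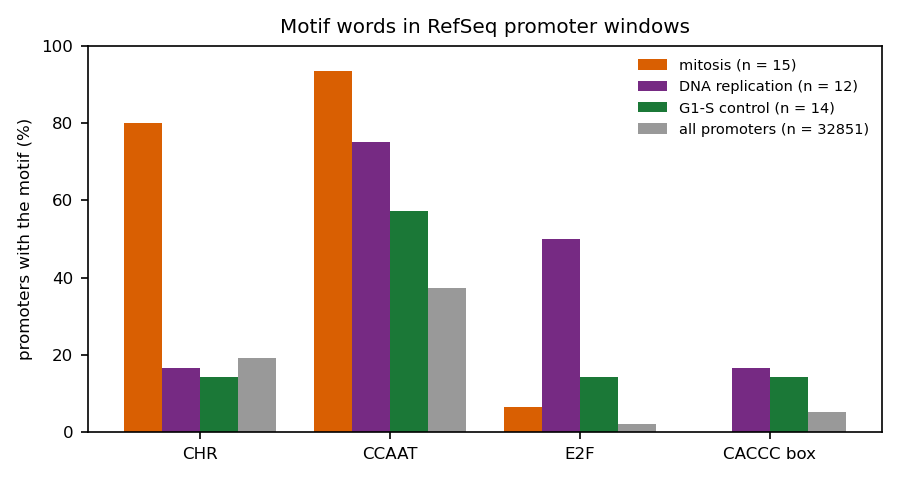
Share of RefSeq promoter windows (y axis, percent) that hold each of 4 sequence words (x axis), for the mitosis, DNA replication and G1-S control genes and for all windows. CHR words stand at 80.0% in mitosis windows and E2F words at 50% in DNA replication windows, against 19.2% and 2.26% of all windows.

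None of the 46 genes passed the threshold in any of the 7 comparisons made (limma across 23410 clusters, adjusted p under 0.05 by Benjamini-Hochberg). For doubly mutant against wild-type arrays this stands beside 3.30% of all clusters called, for Klf3-null against wild type beside 0.585% and for Klf8-trap against wild type beside 0.00%. For doubly mutant against Klf3-null arrays 0.0470% of clusters were called, for doubly mutant against Klf8-trap 3.35%, for both Klf3-null genotypes against both Klf3-intact genotypes 2.38%, and for the interaction 0.00427%. At an unadjusted p under 0.05 there were 9 of the 46 genes in doubly mutant against wild type, all lower (17.9% of all clusters); 2 in Klf3-null against wild type (7.83%); and 1 in Klf8-trap against wild type (13.4%). The other 4 comparisons had 3 (doubly mutant against Klf3-null; 12.9%), 6 (doubly mutant against Klf8-trap; 18.7%), 5 (both Klf3-null against both intact genotypes; 11.3%) and 1 (interaction; 14.4%). Counted in either direction, these shares were near or below that of all clusters. The 9 genes of doubly mutant against wild type were all lower, and no share of lower clusters alone was computed to set beside them. All the comparisons with wild type share the same 4 wild-type arrays.

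**Figure D2:**
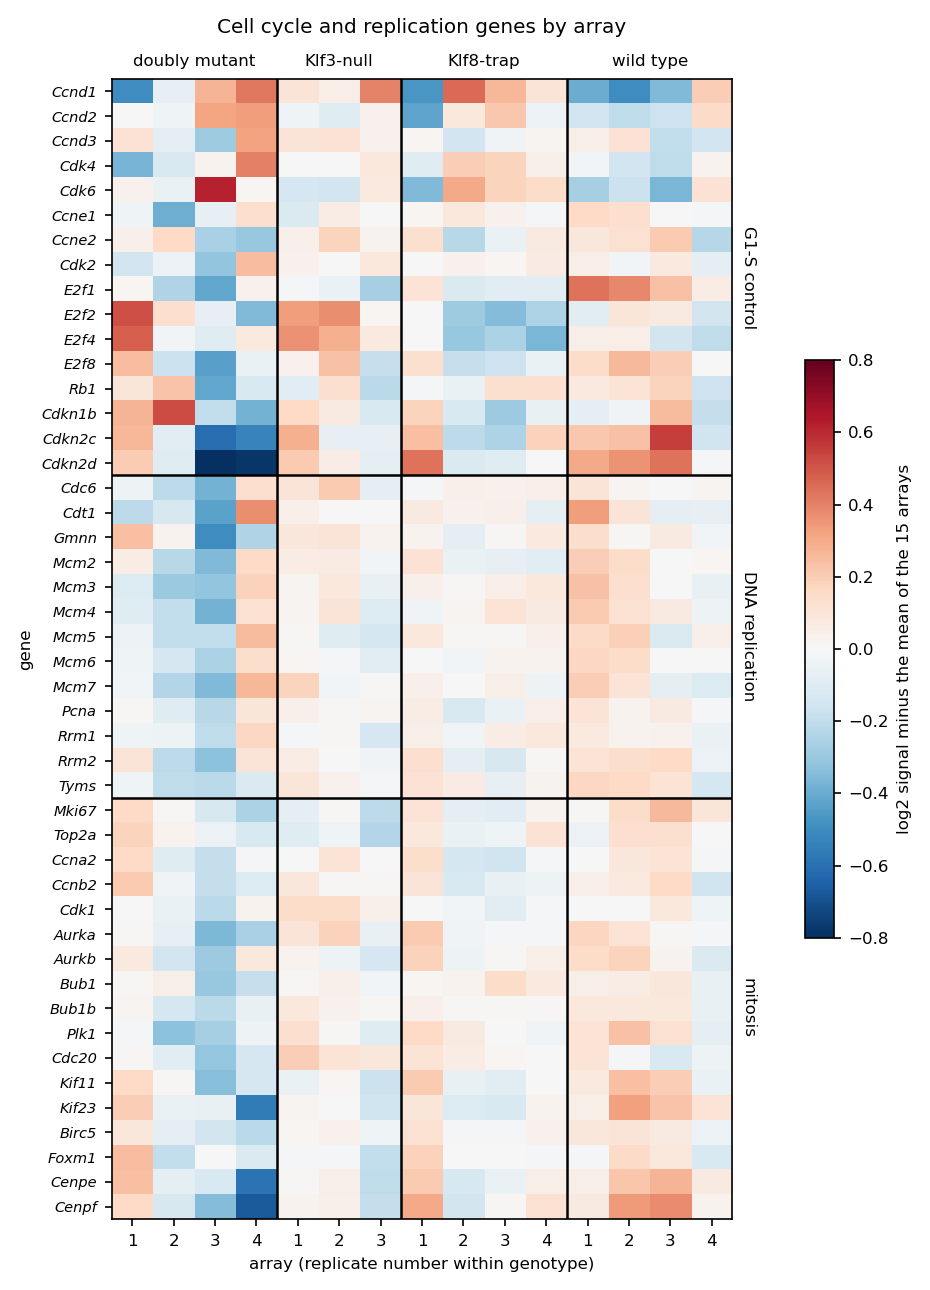
Log2 signal of each of the 46 genes (rows, grouped by role) on each of the 15 arrays (columns, replicate number within genotype), as the difference from that gene's mean over all arrays; red is higher, blue lower. Doubly mutant replicate 3 is the lowest of all arrays at 12 of 13 DNA replication genes, and doubly mutant replicate 4 is low at Cenpe, Cenpf and Kif23 while above its group at 11 of 13 replication genes.

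In G1-S control, the genes with the smallest p were an activating E2F, a repressor-type E2F and inhibitors of the cyclin D kinases. E2f1, an activating E2F, had a log2 signal of 8.74, 8.48, 8.31 and 8.76 in doubly mutant arrays, 8.71, 8.67 and 8.46 in Klf3-null arrays, 8.83, 8.61, 8.63 and 8.64 in Klf8-trap arrays, and 9.16, 9.11, 8.96 and 8.78 in wild-type arrays. Every doubly mutant and every Klf3-null array lay below all wild-type arrays, whereas Klf8-trap replicate 1 lay above the lowest wild-type array. The E2f1 difference from wild type was -0.43 ± 0.11 (SE) in doubly mutant arrays (adjusted p = 0.0551), -0.39 ± 0.12 in Klf3-null arrays (0.339) and -0.32 ± 0.11 in Klf8-trap arrays (0.289). The doubly mutant value of E2f1 passed in 7 of 24 alternative settings, with adjusted p between 0.0195 and 0.334. E2f1 was the 1 gene of the 46 with no overlap between these groups, against 4.75% of clusters lower and 3.64% higher with none.

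E2f4, a repressor-type E2F needed for fetal red cell production in the mouse, ran the other way. It had 11.34, 10.84, 10.77 and 10.94 in doubly mutant arrays, 11.23, 11.15 and 10.94 in Klf3-null arrays, 10.87, 10.56, 10.61 and 10.50 in Klf8-trap arrays, and 10.91, 10.92, 10.72 and 10.66 in wild-type arrays. The Klf3-null arrays lay above all wild-type arrays, but the 7 arrays of both Klf3-null genotypes overlapped the 8 of both intact genotypes. That comparison gave 0.32 ± 0.09 for E2f4 (adjusted p = 0.0963; past the threshold in 4 of 23 alternatives, 0.0282 to 0.454). The E2f4 difference was 0.34 ± 0.12 in doubly mutant against Klf8-trap arrays (adjusted p = 0.155) and 0.30 ± 0.13 in Klf3-null against wild-type arrays (0.617).

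E2f2, an E2F with a known part in erythroblast proliferation, had 11.64, 11.26, 11.06 and 10.77 in doubly mutant arrays, 11.46, 11.50 and 11.14 in Klf3-null arrays, 11.12, 10.84, 10.78 and 10.88 in Klf8-trap arrays, and 11.04, 11.22, 11.20 and 10.98 in wild-type arrays. Doubly mutant replicate 1 was the highest of all arrays for E2f2 and replicate 4 the lowest. Both Klf3-null genotypes differed from both intact ones by 0.27 ± 0.11 (adjusted p = 0.339). E2f8, an atypical repressor E2F, differed by -0.22 ± 0.13 in Klf8-trap against wild-type arrays (adjusted p = 0.462).

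Cdkn2d and Cdkn2c encode INK4 inhibitors, which bind CDK4 and CDK6. Cdkn2d had 10.91, 10.61, 9.89 and 9.93 in doubly mutant arrays, 10.92, 10.77 and 10.63 in Klf3-null arrays, 11.14, 10.59, 10.61 and 10.71 in Klf8-trap arrays, and 11.01, 11.07, 11.14 and 10.69 in wild-type arrays. Replicates 3 and 4 of the doubly mutant group, both female, were below all other arrays, and replicates 1 and 2, both male, lay within the range of the other genotypes. The Cdkn2d difference from wild type was -0.64 ± 0.20 in doubly mutant arrays (adjusted p = 0.0965; past the threshold in 3 of 24 alternatives). It was -0.22 (adjusted p = 0.521) among male embryos alone, which leave out both low arrays. Cdkn2c had the same 2 arrays low, at 8.57 and 8.64, with 9.44 and 9.09 in the other doubly mutant arrays and 9.39, 9.41, 9.73 and 9.02 in wild-type arrays; its difference was -0.46 ± 0.19 (adjusted p = 0.221). Against Klf3-null arrays the doubly mutant difference was -0.44 ± 0.22 for Cdkn2d (adjusted p = 0.412) and -0.30 ± 0.21 for Cdkn2c (0.587).

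Among the cyclins, Ccnd1 (cyclin D1, a partner of CDK4 and CDK6) had the largest SD between wild-type arrays of the 16 genes (0.312, n = 4), just above that of Cdkn2c (0.290). It had 9.78, 10.21, 10.55 and 10.70 in doubly mutant arrays, 10.38, 10.33 and 10.67 in Klf3-null arrays, 9.81, 10.73, 10.54 and 10.38 in Klf8-trap arrays, and 9.88, 9.78, 9.92 and 10.47 in wild-type arrays. Replicate 1 of the doubly mutant group and replicate 1 of the Klf8-trap group had Ccnd1 as low as the 3 lower wild-type arrays. The Ccnd1 differences from wild type were 0.30 ± 0.22 in doubly mutant (adjusted p = 0.518), 0.45 ± 0.23 in Klf3-null (0.687) and 0.35 ± 0.22 in Klf8-trap arrays (0.481). Without both replicates that stand apart, Ccnd1 was called higher in Klf8-trap arrays (adjusted p = 0.0455). The interaction was -0.50 ± 0.32 for Ccnd1 (adjusted p = 0.484) and -0.22 ± 0.19 for Cdk4 (0.619), the kinase partner of the D cyclins. Cdk4 averaged 11.95 ± 0.33 in the doubly mutant group, against 11.87 ± 0.11 in wild type, and Cdk6, the related kinase, 9.23 ± 0.31 in the doubly mutant group, against 8.90 ± 0.21 in wild type (SD, n = 4 each). Ccne2, encoding cyclin E2, differed by -0.17 between doubly mutant and Klf3-null arrays. Rb1, encoding the retinoblastoma protein, averaged 10.72 ± 0.28 in the doubly mutant group, against 10.82 ± 0.15 in wild type. Cdkn1b, encoding the inhibitor p27, has 2 clusters that disagree in doubly mutant against wild-type arrays (0.06 for the brighter and -0.24 for the other).

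**Figure D3:**
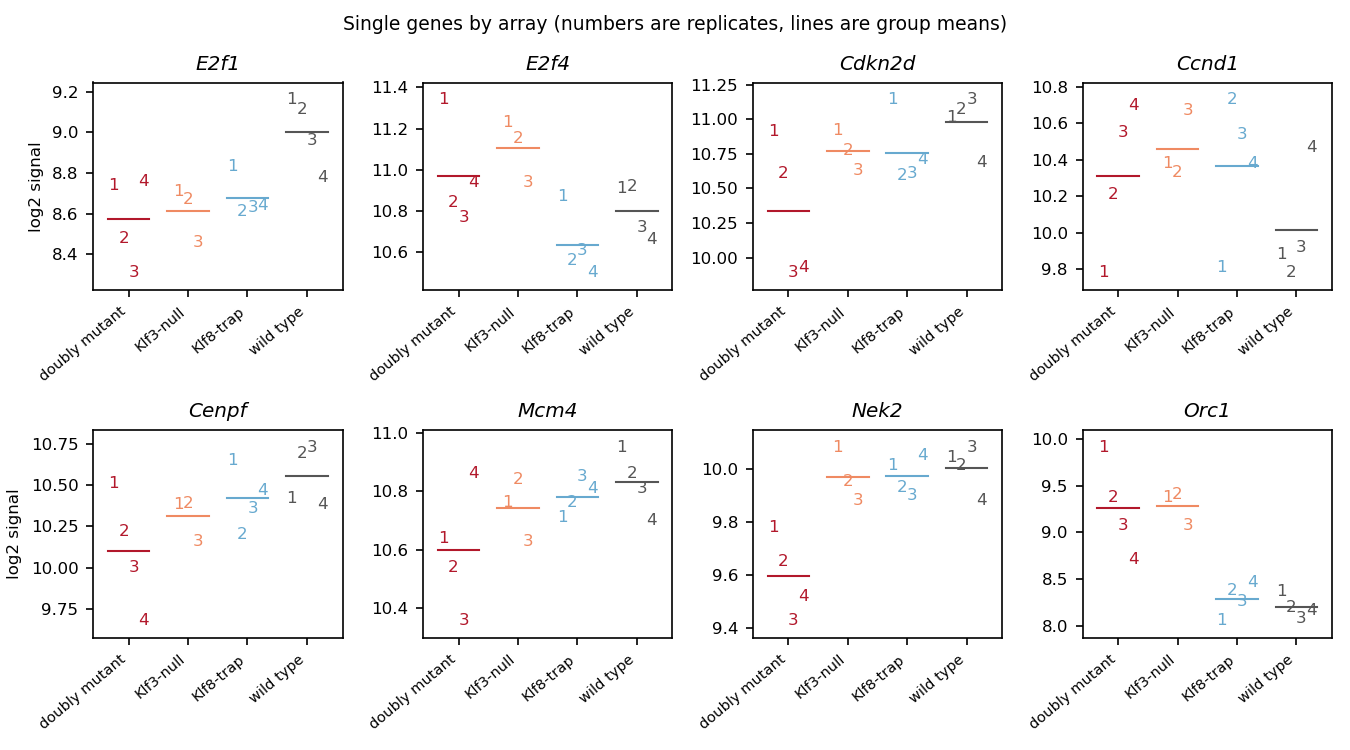
Log2 signal of 8 genes (y axis) on each array, by genotype (x axis); digits are replicate numbers and lines are group means. All doubly mutant arrays lie below wild type at E2f1 and Nek2, doubly mutant replicates 3 and 4 are far below the rest at Cdkn2d, and all 7 arrays of the Klf3-null genotypes lie above the 8 others at Orc1.

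In DNA replication, the doubly mutant arrays held both low and high values, and no gene passed the test. The mean of the 13 genes was 10.95, 10.80, 10.65 and 11.10 in doubly mutant arrays, 11.03, 11.01 and 10.92 in Klf3-null arrays, 11.02, 10.96, 10.97 and 10.99 in Klf8-trap arrays, and 11.14, 11.07, 10.99 and 10.93 in wild-type arrays. Doubly mutant replicates 2 and 3 had the lowest means of all 15 arrays, and replicate 4 was exceeded by wild-type replicate 1 alone. All 13 genes had a doubly mutant mean below that of wild type, with a median difference of -0.17 (range -0.23 to -0.05), where the median over all clusters was -0.02. Over all 46 genes, 38 were below 0 in that comparison, against 55.5% of all clusters. In Klf3-null and Klf8-trap arrays against wild type 29 and 36 were below 0 (51.9% and 53.8% of clusters), in doubly mutant against Klf3-null and Klf8-trap arrays 37 and 39 (54.4% and 50.7%), between both Klf3-null and both intact genotypes 36 (52.1%), and in the interaction 29 (49.8%). Among male embryos alone the G1-S control and mitosis medians turned above 0 in doubly mutant against Klf3-null and Klf8-trap arrays, as given below. In doubly mutant against wild-type arrays the median of the 13 was -0.08 without doubly mutant replicate 3. It was -0.02 with the macrophage marker mean as a covariate. The macrophage mean did not overlap between doubly mutant (7.14 to 8.73) and wild-type arrays (8.85 to 9.13), so that setting cannot separate it from genotype. The same covariate moved the medians of the other roles away from 0, to -0.22 for the 17 mitosis genes (-0.14 without it) and -0.11 for the 16 G1-S control genes (-0.01 without it). In Klf3-null against wild-type arrays the median was -0.06 and in Klf8-trap against wild-type arrays -0.04.

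Mcm4, a subunit of the MCM helicase, had 10.64, 10.54, 10.36 and 10.86 in doubly mutant arrays, 10.76, 10.84 and 10.63 in Klf3-null arrays, 10.71, 10.76, 10.85 and 10.81 in Klf8-trap arrays, and 10.95, 10.86, 10.81 and 10.70 in wild-type arrays. Doubly mutant replicate 4 lay within the wild-type range of Mcm4 and the other 3 below it. Its difference from wild type was -0.23 ± 0.10 (adjusted p = 0.221), that of Mcm3, another helicase subunit with 2 E2F words in its window, -0.21 ± 0.10 (0.291). Tyms, the enzyme that makes thymidylate, had 10.29, 10.12, 10.11 and 10.21 in doubly mutant arrays, 10.42, 10.36 and 10.31 in Klf3-null arrays, 10.44, 10.39, 10.26 and 10.35 in Klf8-trap arrays, and 10.49, 10.48, 10.43 and 10.18 in wild-type arrays. Doubly mutant arrays were all below the Klf3-null arrays at Tyms and overlapped wild type only through wild-type replicate 4. The Tyms difference was -0.21 ± 0.08 from wild type (adjusted p = 0.176), -0.18 ± 0.09 from Klf3-null (0.405) and -0.18 ± 0.08 from Klf8-trap arrays (0.256).

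The other licensing genes gave smaller differences relative to their spread. Cdc6, a loader of the helicase, averaged 9.85 ± 0.22 in doubly mutant arrays (SD, n = 4) and 10.06 ± 0.15 in Klf3-null arrays (n = 3), a difference of -0.20 ± 0.11 (adjusted p = 0.441). Gmnn, which encodes the licensing inhibitor geminin, had 8.36, 8.15, 7.62 and 7.88 in doubly mutant arrays and 8.26, 8.13, 8.19 and 8.10 in wild-type arrays, so that the doubly mutant replicates lay on both sides of wild type. Cdt1, the partner that geminin blocks, had 9.90, 9.98, 9.68 and 10.48 in doubly mutant arrays and 10.44, 10.21, 10.03 and 10.04 in wild-type arrays. Cdt1 was thus highest of all in doubly mutant replicate 4, where Gmnn was low. In doubly mutant replicate 3, however, both Gmnn (7.62) and Cdt1 (9.68) were at the lowest of these values. In Klf3-null against wild-type arrays the smallest p values belonged to Mcm5 (-0.14 ± 0.11), Mcm6 (-0.11) and Mcm4 (-0.09), and in Klf8-trap against wild-type arrays to Mcm2 (-0.11 ± 0.10), Rrm2 (-0.11 ± 0.10) and Mcm6 (-0.07), all helicase subunits except Rrm2, a subunit of ribonucleotide reductase. Pcna, the sliding clamp, averaged 12.87 ± 0.14 in the doubly mutant group, against 12.97 ± 0.05 in wild type, and its 2 clusters gave differences of -0.10 and -0.09. Rrm1, the large subunit of ribonucleotide reductase, averaged 12.55 ± 0.15 in the doubly mutant group, against 12.61 ± 0.06 in wild type (SD, n = 4 each).

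In mitosis, too, no gene passed the test, and the array pattern differed from that of replication. The mean of the 17 genes was 11.06, 10.87, 10.74 and 10.75 in doubly mutant arrays, 10.98, 10.99 and 10.86 in Klf3-null arrays, 11.08, 10.90, 10.91 and 10.97 in Klf8-trap arrays, and 11.01, 11.09, 11.07 and 10.92 in wild-type arrays. Doubly mutant replicates 2, 3 and 4 lay below every wild-type array and replicate 1 lay among them. All 17 genes had a doubly mutant mean below wild type, with a median of -0.14 (range -0.45 to -0.04). That median was -0.04 among male embryos alone and -0.22 with the macrophage covariate. It was -0.08 in Klf3-null and -0.04 in Klf8-trap arrays against wild type.

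Cenpf, a kinetochore protein of G2 and mitosis, had 10.51, 10.22, 10.00 and 9.68 in doubly mutant arrays, 10.38, 10.39 and 10.16 in Klf3-null arrays, 10.65, 10.20, 10.36 and 10.47 in Klf8-trap arrays, and 10.42, 10.69, 10.73 and 10.38 in wild-type arrays. Doubly mutant replicate 4 was the lowest of all arrays and replicate 1 lay within wild type. The Cenpf difference was -0.45 ± 0.15 (adjusted p = 0.122; 0.0129 to 0.57 over 24 alternatives, 2 past the threshold), and -0.28 ± 0.11 between both Klf3-null and both intact genotypes (adjusted p = 0.306). Plk1, a kinase that drives mitotic entry, had 10.96, 10.64, 10.70 and 10.93 in doubly mutant arrays and 11.08, 11.20, 11.09 and 10.89 in wild-type arrays. Its groups overlapped through 1 wild-type array, and the difference was -0.26 ± 0.09 (adjusted p = 0.154). Aurka, the spindle-pole kinase, had 11.14, 11.06, 10.77 and 10.87 in doubly mutant arrays and 11.30, 11.24, 11.14 and 11.12 in wild-type arrays, with overlap through doubly mutant replicate 1 and a difference of -0.24 ± 0.09 (adjusted p = 0.190).

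Between doubly mutant and Klf3-null arrays, 3 of the 46 genes were lower with no overlap, Tyms, Cdk1 and Cdc20, against 5.45% of all clusters, and 0 were higher (4.50%). Cdc20, an activator of the anaphase-promoting complex, had 10.59, 10.50, 10.27 and 10.45 in doubly mutant arrays, 10.78, 10.69 and 10.67 in Klf3-null arrays, 10.69, 10.64, 10.60 and 10.58 in Klf8-trap arrays, and 10.69, 10.57, 10.46 and 10.54 in wild-type arrays. Klf3-null arrays were thus in the upper part of the Cdc20 range and doubly mutant arrays in the lower part. The Cdc20 difference was -0.26 ± 0.09 (adjusted p = 0.213) and its interaction, the smallest p among the 46 genes, -0.32 ± 0.12 (0.241). Cdk1, the mitotic kinase, differed by -0.17 ± 0.08 (adjusted p = 0.347) and Aurka by -0.24 ± 0.10 (0.338). Between Klf3-null and wild-type arrays, E2f1, Kif23 and Cenpe were lower with no overlap (5.70% of clusters) and E2f4 higher (8.79%). None of the 46 was without overlap in Klf8-trap against wild-type arrays (2.89% of clusters lower, 2.47% higher) or in doubly mutant against Klf8-trap arrays (4.12% and 3.21%), and none between both Klf3-null and both intact genotypes (0.299% and 0.854%). Kif23 and Cenpe are kinesins of the midzone and the kinetochore. Mki67, the proliferation marker Ki-67, differed by -0.22 ± 0.10 in Klf3-null arrays (adjusted p = 0.639) and Top2a, the topoisomerase of chromosome separation, by -0.18 ± 0.09 (0.676). In Klf8-trap arrays the mitosis genes with the smallest p were Kif23 (-0.21 ± 0.13, adjusted p = 0.489), Mki67 (-0.14) and Ccna2 (-0.09), which encodes cyclin A2.

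None of the genes with the smallest p passed the threshold in the remaining comparisons. Doubly mutant against Klf8-trap arrays gave -0.21 ± 0.09 for Plk1 (adjusted p = 0.235), -0.18 ± 0.08 for Cdc20 (0.25), -0.21 ± 0.09 for Aurka (0.256), -0.18 ± 0.10 for Mcm4 (0.337) and for Mcm3 (0.364), -0.42 ± 0.20 for Cdkn2d (0.27) and 0.28 ± 0.15 for E2f2 (0.338). Of the G1-S control genes here E2f2 and E2f4 were higher in the doubly mutant mean and Cdkn2d lower. Between both Klf3-null and both intact genotypes E2f1 gave -0.24 ± 0.08 (adjusted p = 0.204), Plk1 -0.15 ± 0.07 (0.45), Mki67 -0.13 ± 0.07 (0.543), Mcm4 -0.13 ± 0.07 (0.536), Tyms -0.11 ± 0.06 (0.581) and Mcm3 -0.12. As interactions E2f1 gave 0.28 ± 0.17 (adjusted p = 0.453), Aurka -0.21 ± 0.14 (0.506), Cdk1 -0.13 ± 0.10 (0.575), Cdc6 -0.19 ± 0.14 (0.563), Tyms -0.14 ± 0.12 (0.597) and Gmnn -0.15. In Klf3-null against wild-type arrays Cdc20 gave 0.15 ± 0.09 (adjusted p = 0.718), and in doubly mutant against Klf3-null arrays Gmnn gave -0.19 ± 0.13 (0.571).

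Of the remaining mitosis genes, Ccnb2 (cyclin B2) averaged 12.05 ± 0.17 in the doubly mutant group, against 12.11 ± 0.14 in wild type. Foxm1, the transcription factor of the G2-M programme, averaged 9.02 ± 0.19 in the doubly mutant group, against 9.06 ± 0.12 in wild type. Birc5, which encodes the chromosomal passenger survivin, averaged 10.28 ± 0.14 in the doubly mutant group, against 10.42 ± 0.07 in wild type (SD, n = 4 each). The intervals limit what these arrays could have shown. They rest on an estimate of spread per gene that all genotypes share, although the doubly mutant arrays varied more, as given below. They can thus be too narrow for comparisons with that group and too wide for those without it. In doubly mutant against wild-type arrays the 95% intervals of the 13 replication genes ran between -0.46 and 0.13, those of the 17 mitosis genes between -0.77 and 0.17, and those of the 16 G1-S control genes between -1.07 and 0.76. In Klf8-trap against wild-type arrays they ran between -0.35 and 0.23 for replication, -0.48 and 0.23 for mitosis and -0.64 and 0.81 for G1-S control.

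**Figure D4:**
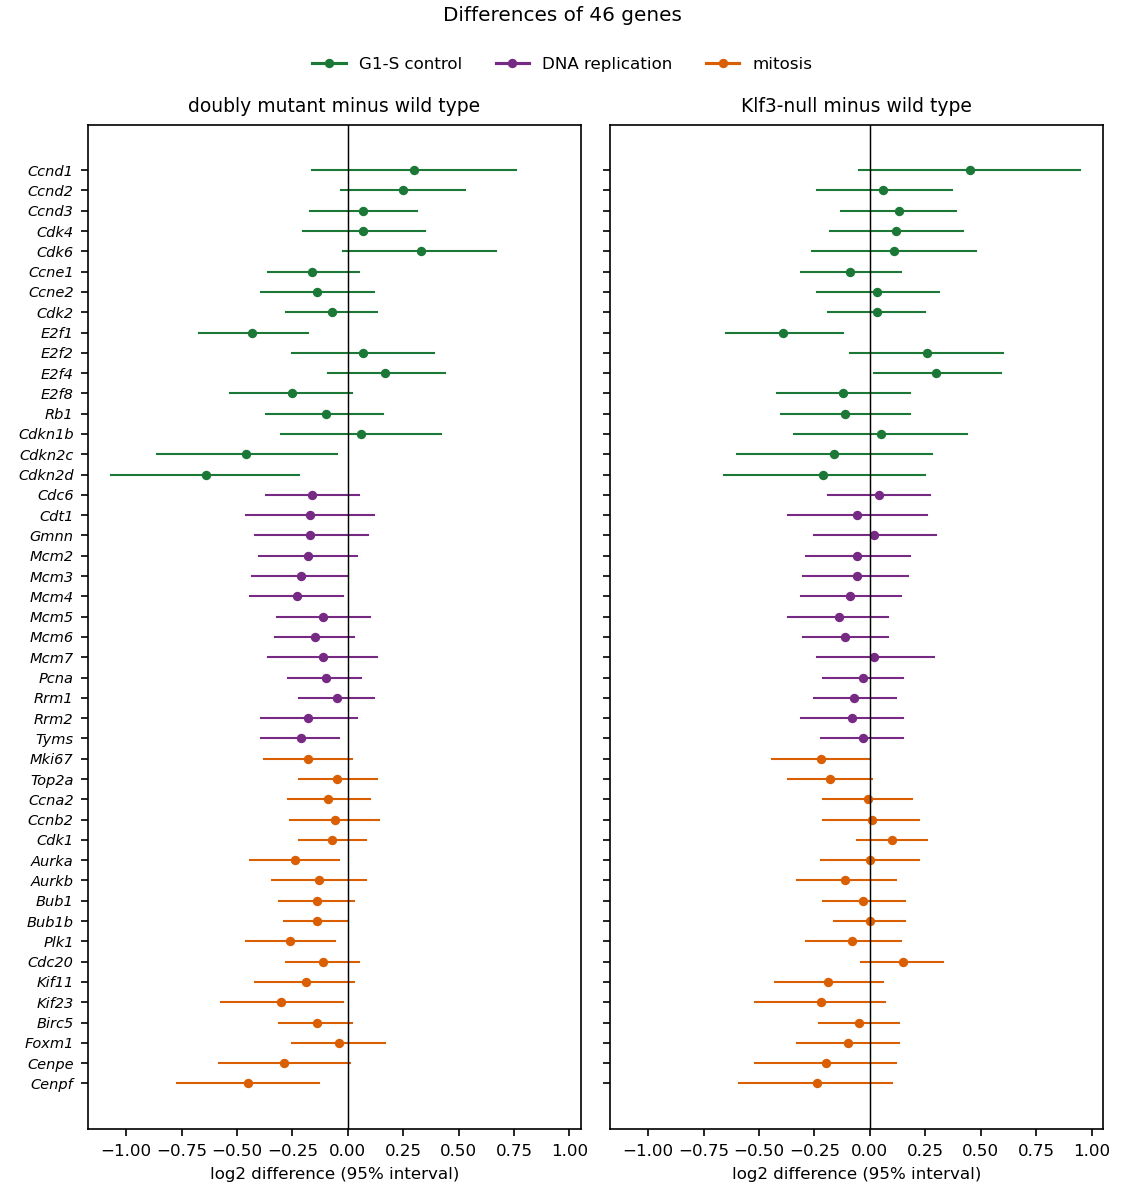
Log2 difference of each of the 46 genes (rows) in doubly mutant against wild-type arrays (left) and Klf3-null against wild-type arrays (right); points are limma estimates and bars their 95% intervals. All 13 DNA replication and all 17 mitosis points of the left panel lie below 0, most of their intervals cross 0, and none passed the threshold after adjustment.

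The spread between replicates was wider in the doubly mutant group. The median SD over the 13 replication genes was 0.22 in doubly mutant arrays, 0.05 in Klf3-null, 0.06 in Klf8-trap and 0.10 in wild-type arrays, and over the 17 mitosis genes it was 0.17 in doubly mutant, 0.09 in Klf3-null, 0.09 in Klf8-trap and 0.10 in wild-type arrays. Doubly mutant replicate 3 was the lowest of all 15 arrays at 12 of 13 replication genes, 9 of 17 mitosis genes and 7 of 16 G1-S control genes. Doubly mutant replicate 4 was the highest of its group at 11 of 13 replication genes and the lowest of all 15 arrays at 5 of 17 mitosis genes, so its replication mean minus its mitosis mean was 0.34, where the other 14 arrays had between -0.11 and 0.13. Doubly mutant replicate 1 was the highest of its group at 14 of 17 mitosis genes. Klf8-trap replicate 1 was likewise highest of its group at 15 of 17 mitosis genes and Klf3-null replicate 3 lowest of its group at 16 of 17.

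The erythroid marker mean was 12.28, 12.02, 11.78 and 11.79 in doubly mutant arrays, with the same replicates high and low as in the mitosis mean, and lay between 11.99 and 12.21 in Klf3-null, 12.05 and 12.39 in Klf8-trap, and 12.19 and 12.41 in wild-type arrays. Of its 13 genes, 2 (Klf1 and Nfe2) fell against wild type in the doubly mutant group by the limma test, and the median was -0.34. The macrophage marker mean (15 genes, Cd163 below the array medians in all groups) was 7.14, 7.90, 7.85 and 8.73 in doubly mutant arrays, 8.22 to 8.72 in Klf3-null, 8.32 to 8.86 in Klf8-trap and 8.85 to 9.13 in wild-type arrays; 7 of 15 genes fell in doubly mutant arrays relative to wild type. Within the doubly mutant group the macrophage mean was highest in replicate 4, the array with the highest replication mean of its group. Doubly mutant replicate 1, however, had the lowest macrophage mean of all arrays and a replication mean of 10.95, above replicates 2 and 3 (10.80 and 10.65). Markers of other cells differed too. Hepatocyte markers averaged 11.03, 12.18, 12.24 and 12.29 in doubly mutant arrays, 12.13 to 12.38 in Klf3-null, 12.16 to 12.86 in Klf8-trap and 11.76 to 12.14 in wild-type arrays, so that doubly mutant replicate 1 was the lowest of all. In Klf8-trap against wild-type arrays 0 of 11 passed the limma test (0.00% of all clusters). At an unadjusted p under 0.05, 10 were higher there, against 13.4% of all clusters in either direction. In doubly mutant against wild-type arrays 2 of 8 stromal markers were called higher (Col1a1 and Col1a2). The 8 ran both ways, with 6 differences above 0 and 2 below (median 0.28, range -0.40 to 0.86). Of 9 progenitor markers 2 were called lower (Mecom and Cd48, with Cd48 below the array medians in all groups). These also ran both ways, with 6 below 0 and 3 above (median -0.06, range -0.73 to 0.46). In that comparison, to which the erythroid and macrophage counts also belong, 3.30% of all clusters were called. The part of these cell types, of embryo sex and of single arrays in the cell cycle values was not tested beyond the settings named. In bulk RNA, fewer cells of a type and less RNA per cell cannot be told apart.

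**Figure D5:**
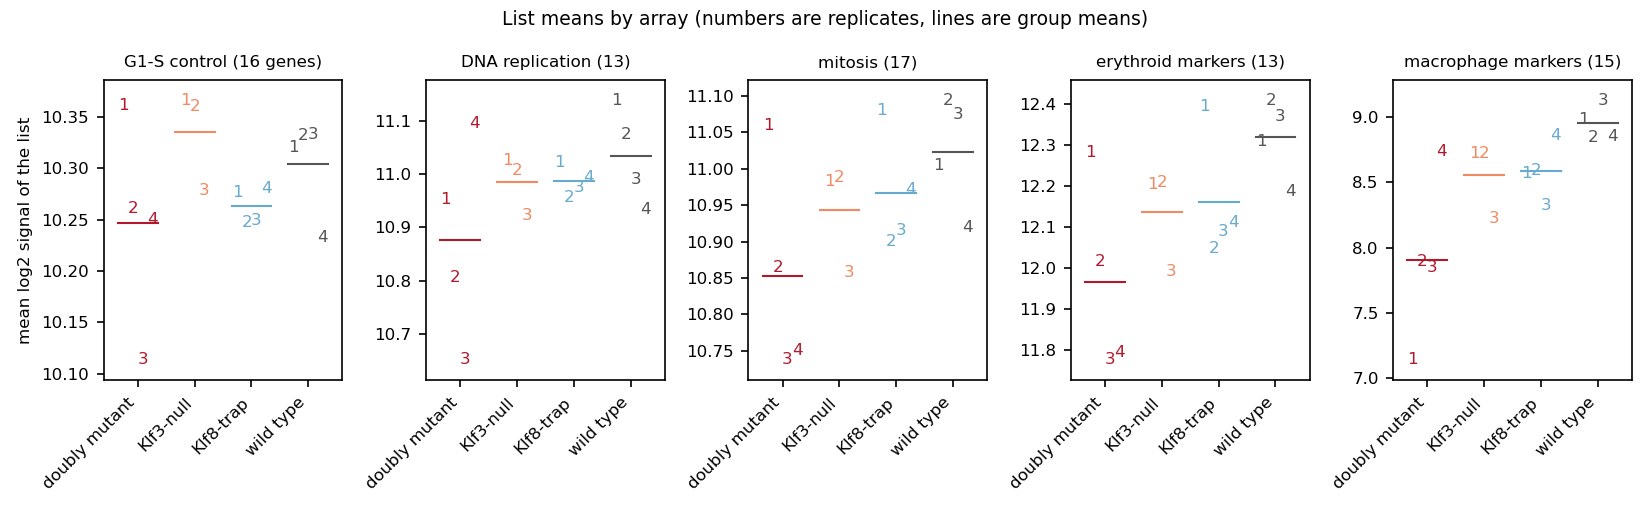
Mean log2 signal of each gene list (y axis) on each array, by genotype (x axis); digits are replicate numbers and lines are group means. Doubly mutant arrays spread from 10.65 to 11.10 in DNA replication and from 10.74 to 11.06 in mitosis, and their erythroid and macrophage marker means reach lower than those of the other genotypes.

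Further genes of the same 3 roles were read from lists of 27, 48 and 52 genes, of which 25, 47 and 52 were measured. In doubly mutant against wild-type arrays 1 of 25 G1-S control genes was lower, 1 of 47 replication genes was higher and 2 of 52 mitosis genes were lower. The medians were 0.01, -0.13 and -0.19. In Klf3-null against wild-type arrays 1 of 47 replication genes was higher and no gene of the other lists passed (limma). In Klf8-trap against wild-type arrays, in doubly mutant against Klf3-null arrays and in the interaction none of the 3 lists had a called gene. In doubly mutant against Klf8-trap arrays the calls were those of doubly mutant against wild type, and between both Klf3-null and both intact genotypes Orc1 alone was called. At an unadjusted p under 0.05, doubly mutant against wild-type arrays had 20 of the 52 mitosis genes, all lower. They also had 11 of 47 replication genes (9 lower) and 7 of 25 G1-S control genes (5 lower). Of all clusters 17.9% were so in either direction, and no share by direction was computed. The corresponding counts for mitosis, replication and G1-S control genes were 14, 10 and 5 in doubly mutant against Klf8-trap arrays (18.7% of clusters) and 12, 6 and 4 between both Klf3-null and both intact genotypes (11.3%). They were 7, 3 and 2 in doubly mutant against Klf3-null arrays (12.9%), 0, 3 and 2 in Klf3-null against wild type (7.83%), 0, 0 and 2 in Klf8-trap against wild type (13.4%), and 3, 3 and 4 for the interaction (14.4%). These are counts of genes measured on the same arrays, and no test of a list was made.

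The replication gene called higher was Orc1, which encodes the largest subunit of the origin recognition complex. It had 9.91, 9.37, 9.07 and 8.71 in doubly mutant arrays, 9.37, 9.40 and 9.07 in Klf3-null arrays, 8.06, 8.38, 8.26 and 8.46 in Klf8-trap arrays, and 8.37, 8.20, 8.08 and 8.16 in wild-type arrays. All 7 arrays of the Klf3-null genotypes were above all 8 of the Klf3-intact genotypes, which 0.854% of clusters also were. Orc1 rose by 1.03 ± 0.14 in that comparison (2.04-fold; adjusted p = 0.000359, past the threshold in 23 of 23 alternatives). It rose by 1.06 ± 0.19 in doubly mutant (adjusted p = 0.00426) and by 1.08 ± 0.20 in Klf3-null against wild-type arrays (0.0189), and by 0.98 ± 0.19 in doubly mutant against Klf8-trap arrays (0.00881). With the macrophage marker mean as a covariate the doubly mutant differences of Orc1 were 0.56 against wild type (adjusted p = 0.239) and 0.65 against Klf8-trap arrays (0.145). A limma fit of doubly mutant and Klf8-trap arrays alone gave an adjusted p of 0.102. The covariate did not overlap between doubly mutant and wild-type arrays, so a call lost with it there cannot be separated from genotype. The Klf3-null call for Orc1 was lost without Klf3-null replicate 1 or 2 (adjusted p = 0.134 each), without wild-type replicate 2, 3 or 4 (0.0632, 0.0729 and 0.0606) and among male embryos alone (0.87, 0.166). The Orc1 window holds 1 E2F word and neither of the CACCC box words that were searched. The shorter run CACCC does occur in it, and other CACCC-type sequences were not searched for. The licensing factors that act with the complex, Cdc6 and Cdt1, were not past the threshold in any comparison.

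The called mitosis genes were Nek2, a centrosomal kinase, and Cenpn, a centromere protein. Nek2 had 9.78, 9.65, 9.43 and 9.52 in doubly mutant arrays, 10.08, 9.95 and 9.88 in Klf3-null arrays, 10.01, 9.93, 9.90 and 10.05 in Klf8-trap arrays, and 10.04, 10.01, 10.08 and 9.88 in wild-type arrays. Cenpn had 9.76, 9.51, 9.50 and 9.55 in doubly mutant arrays, 9.94, 10.06 and 9.86 in Klf3-null arrays, 10.14, 9.99, 9.84 and 9.91 in Klf8-trap arrays, and 10.16, 10.10, 10.01 and 9.83 in wild-type arrays. At both genes every doubly mutant array was below every array of the other 3 genotypes. Nek2 fell by 0.41 ± 0.09 against wild type (adjusted p = 0.0147) and by 0.38 ± 0.09 against Klf8-trap arrays (0.0250). Cenpn fell by 0.44 ± 0.09 (adjusted p = 0.0162) and by 0.39 ± 0.09 (0.0341) in the same comparisons. Against Klf3-null arrays the differences were -0.37 ± 0.09 for Nek2 (adjusted p = 0.13) and -0.38 ± 0.10 for Cenpn (0.153), and neither interaction passed (0.245 and 0.31). The wild-type calls were lost without doubly mutant replicate 3 (Nek2 0.0501, Cenpn 0.0534), without wild-type replicate 1 (0.0507 and 0.0652) or 3 (0.0614 and 0.0508), for Cenpn without wild-type replicate 2 (0.0622), with the macrophage covariate (Nek2 -0.46, 0.102; Cenpn -0.49, 0.109, both larger differences than without it), among males (Nek2 -0.29, 0.156; Cenpn -0.39, 0.146) and in a fit of those 2 groups alone (0.0846 and 0.0742). The Klf8-trap calls of Nek2 and Cenpn were lost without doubly mutant replicate 3 (0.0758 and 0.0911), without Klf8-trap replicate 2 (0.0593 and 0.0985) or 4 (0.0813 and 0.0665), for Cenpn without doubly mutant replicate 2 (0.0712), with quantile normalization (0.0664 and 0.115) and in a fit of those 2 groups alone (0.151 and 0.148). Among males they were -0.20 for Nek2 (adjusted p = 0.274) and -0.28 for Cenpn (0.244), and with the macrophage covariate -0.41 (0.0945) and -0.43 (0.124).

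Ccng1 encodes cyclin G1, a p53-responsive cyclin that is not itself a driver of S phase. It had 9.10, 9.17, 8.93 and 9.39 in doubly mutant arrays, 9.71, 9.80 and 9.61 in Klf3-null arrays, 9.56, 9.58, 9.87 and 10.05 in Klf8-trap arrays, and 9.72, 9.52, 9.49 and 9.86 in wild-type arrays. All doubly mutant arrays were below all others. Ccng1 fell by 0.62 ± 0.13 against Klf8-trap arrays (adjusted p = 0.0133; past in 21 of 24 alternatives) and by 0.50 ± 0.13 against wild type (0.0414; past in 9 of 24). The Ccng1 call against wild type was lost without doubly mutant replicate 1, 2 or 3, any Klf3-null array, Klf8-trap replicate 3 or any wild-type array (adjusted p between 0.0533 and 0.137), and with the macrophage covariate it was -0.30 (adjusted p = 0.428). That call was also lost with sex as a term (adjusted p = 0.0583) and in a fit of those 2 groups alone (0.0952). Among male embryos alone the difference was -0.52, and the call was lost there too. The Ccng1 call against Klf8-trap arrays was lost without Klf8-trap replicate 4 (0.0505), with the macrophage covariate (-0.48, 0.173) and in a fit of those 2 groups alone (0.102). Its interaction was -0.67 ± 0.19 (adjusted p = 0.173).

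Of the genes with the smallest p in lists without a call, Cdk7, the CDK-activating kinase, differed by 0.23 ± 0.08 in Klf8-trap (adjusted p = 0.277) and by 0.19 ± 0.08 in Klf3-null arrays against wild type (0.598). Spc25, an outer kinetochore protein, differed by -0.21 ± 0.11 in Klf3-null arrays (adjusted p = 0.685), and Rpa3, which binds single-stranded DNA, by 0.26 ± 0.14 in Klf8-trap arrays (0.421). Espl1, which encodes separase, differed by -0.18 ± 0.11 in Klf8-trap arrays (adjusted p = 0.466). Rfc4, a clamp loader subunit, differed by -0.31 ± 0.10 between doubly mutant and Klf3-null arrays (adjusted p = 0.209) and by -0.45 ± 0.14 as an interaction (0.197). Ccng2, encoding cyclin G2, differed by 0.64 ± 0.19 between both Klf3-null and both intact genotypes (adjusted p = 0.114), and Lin9, a MuvB subunit, had an interaction of -0.41 ± 0.14 (0.235).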

How the data were processed

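Gene expression was measured on 15 Affymetrix arrays, with RNA labelled by biotin from TER119-positive cells. The authors deposited 1 log2 signal for each transcript cluster on each array; per the submitters' processing notes the tools were RMA and Partek, with no version given. They carry no detection call and no depth; the number of arrays limits the precision. Of 35556 clusters, 23410 had a gene symbol in the platform annotation and were tested; symbols of 21698 single-gene clusters matched RefSeq assembly GRCm38.p6 and 0 changed.

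The values were used as deposited. All 15 arrays entered 1 limma fit (version 3.58.1, R 4.3.3) with a mean per genotype, moderated by eBayes without trend, and p-values were adjusted by the Benjamini-Hochberg method over all tested clusters with a threshold of 0.05. The 7 comparisons were the 5 pairs printed, the mean of both Klf3-null genotypes minus that of both intact genotypes, and the interaction (doubly mutant minus Klf3-null minus Klf8-trap plus wild type). The fit was tested on simulated data with the same spread in every genotype. Of the changed clusters it recovered 42 of 66 at a log2 size of 0.5, 64 of 67 at 1 and 67 of 67 at 2, with 12 false calls. Sizes below 0.5, which most of the 46 genes had, were not simulated, and neither was the wider doubly mutant spread. Replicate numbers were taken to pair 2 groups where the deviations of every same-numbered pair correlated above 0.1. Doubly mutant and Klf8-trap arrays met this (r of 0.534, 0.114, 0.158 and 0.18), and a replicate block left the count there at 0. The value of 0.534 belongs to replicate 1, the array that stands apart in both groups. Arrays with unlike numbers were not correlated, so meeting the limit does not show that arrays were paired. Doubly mutant and Klf3-null arrays were positive in all 3 pairs but below the limit in 2 (0.079, 0.071 and 0.158).

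The genes and lists were chosen with earlier results of these data known. Named among them are those past the threshold, the 3 with the smallest p per role and comparison, and the 3 highest and 3 lowest of each role in wild type; from the further lists those past the threshold (at most 5 per list and direction), otherwise the 1 with the smallest p. Other genes were named after their values were seen. Levels of different genes were not compared. Alternatives were quantile normalization, a trend, a filter on low clusters, the mean of a gene's clusters, only the groups compared, embryo sex, a macrophage covariate, a replicate block, and arrays left out; a fit of male embryos alone was added with the sex of the arrays known.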

Additional observations from a re-analysis of the deposited data

Results flagged for a closer look

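In the groups of 4 arrays, 9 of 159 sets of values had 1 array whose gap to the next, as a share of the group's range, was above Dixon's 95% critical value; chance gives about 1 in 20. Klf8-trap replicate 1 accounted for 5 of them, each time as the highest of its group: E2f1 at 8.83 (the others 8.61 to 8.64), Mcm2 at 11.58 (11.37 to 11.41), Aurka at 11.34 (11.10 to 11.12), Bub1b, a spindle checkpoint kinase, at 10.61 (the others at 10.58) and Foxm1 at 9.22 (9.02 to 9.04). Wild-type replicate 4 was the highest of its group for Ccnd2, which encodes cyclin D2, at 9.98 (9.62 to 9.67), the lowest for Bub1b at 10.51 (the others at 10.65) and the lowest in the mean of the 16 G1-S control genes at 10.23 (10.32 to 10.33). Doubly mutant replicate 3 was the highest of its group for Cdk6 at 9.69 (9.02 to 9.11), while it was the lowest of all arrays for 7 of the 16 G1-S control genes.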

How the results depend on the processing

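Of the 46 genes none was called in Klf3-null against wild-type arrays, in doubly mutant against Klf3-null arrays or in the interaction, under any setting tried. In doubly mutant against wild-type arrays the count was 1 (E2f1) with dim clusters filtered out. It was 2 (E2f1 and Cdkn2d) with a replicate block, though those groups did not meet the rule for pairing. Without both arrays that stand apart it was 7 (E2f1, Cdkn2c, Cdkn2d, Aurka, Kif23, Cenpe and Cenpf). Leaving out 1 array at a time gave 0 to 3: without doubly mutant replicate 1 it was 3 (E2f1, Cdkn2d and Cenpf), without doubly mutant replicate 4 it was 2 (E2f1 and Mcm3), and without Klf8-trap replicate 1 or wild-type replicate 4 it was 1 (E2f1). In Klf8-trap against wild-type arrays it was 1 (Ccnd1) without both arrays that stand apart, and in doubly mutant against Klf8-trap arrays 2 (E2f2 and Cdkn1b) among males, with 2 arrays each. Between both Klf3-null and both intact genotypes it was 1 (E2f4) with quantile normalization, with a replicate block and without both arrays that stand apart, and 0 to 1 with 1 array left out (1 without Klf8-trap replicate 1). Directions turned among males alone (1 Klf3-null male). In doubly mutant against Klf3-null arrays the median turned from -0.09 to 0.10 in G1-S control and from -0.09 to 0.08 in mitosis. Against Klf8-trap arrays these medians turned from -0.06 to 0.12 and from -0.12 to 0.03. The replication medians stayed below 0 (-0.04 and -0.12). Of single genes, in doubly mutant against Klf3-null arrays Ccne2 gave 0.07, Cdkn2c 0.15, Cdkn2d 0.13, Gmnn 0.10 and Aurka 0.03. In doubly mutant against Klf8-trap arrays Cdkn2d gave 0.16, and in the interaction Gmnn gave 0.19 and Aurka 0.13. None of these was past the threshold, and the cause was not tested. All wild-type arrays were male, so a fit with sex as a term rests on the other genotypes. The fit with sex called 0 of the 46 genes in each comparison. Likewise, the macrophage mean of every doubly mutant array lay below that of every wild-type array. A call or median that moved with that covariate in this comparison cannot be separated from genotype.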
